A study of Mus musculus with 6 samples.

Results

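The 40 genes described here encode the machinery of mitosis: the cyclins and kinases that start it, the spindle and its kinesin motors, the kinetochores, the checkpoint that holds anaphase, and the factors that divide the cell. They were chosen by name, as the rows of the authors' deposited table whose gene symbol stands on a list of 40, and all 40 were found among the 26778 genes of the table. The cells were macrophages differentiated for 7 days from mouse bone marrow, in medium with serum and L292 conditioned medium. Wild type cells (Flt-1+/+, 3 libraries) were compared with cells labelled heterozygous (Flt-1+/-, 3 libraries), both of C57BL/6 background. Flt-1 is VEGF receptor 1, also written VR1. Cells of both genotypes were starved of serum at 2% oxygen for 6 h, so the challenge is shared by every library and no library without it was analysed here. The labels give neither the age of the animals nor the nature of the Flt-1 allele, and they do not say whether the 3 libraries of a genotype came from separate animals. A p-value here sets a difference against library-to-library spread alone, and that spread may be technical.

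Mitosis begins when the complex of cyclin-dependent kinase 1 and cyclin B becomes active. Aurora and Polo kinases then help to build a spindle of microtubules, kinetochores tie the chromosomes to it, and the spindle checkpoint blocks the anaphase-promoting complex until every chromosome is attached. Most of these genes are transcribed late in the cell cycle and are silent in resting cells, so their RNA is widely read as a mark of dividing cells. Macrophages grown from marrow divide in response to colony-stimulating factor 1 and slow down as they mature.

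The authors' table gives a mean normalized count per genotype, the average over libraries of reads scaled by size factors. Whole counts per library were solved from these means for 26289 genes, among them all 40, and the libraries of each genotype are lettered A, B and C, as nothing links them to replicate numbers. Library totals, estimated from the size factors, ran from about 25130000 to 42070000 reads. Each of the 40 genes had between 96 and 9525 reads in every library. Flt1 itself was not lower in the libraries labelled heterozygous, where the authors' deposited table lists a mean of 12.7 normalized counts against 6.66 in wild type (adjusted p 0.641). The targeted gene, with so few reads, does not check the genotype labels. Flt-1+/- below means libraries so labelled, and each direction is between libraries as labelled. The macrophage marker Adgre1 was abundant in both genotypes, at means of 294266 and 258965 normalized counts.

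All 40 genes had a higher mean in the libraries labelled Flt-1+/-. In bulk RNA, a larger share of dividing cells and more RNA of these genes per cell cannot be told apart. The ratio of group means ran from 1.06-fold for Incenp to 2.08-fold for Kif4, with a median of 1.61-fold. On the log2 scale, with 1 added to each mean, the median of the 40 genes was 0.69 and that of all genes tested was -0.01. The authors' test called 26 of the 40 genes higher and 0 lower at an adjusted p of 0.05, where it called 2.51% of all tested genes higher and 3.52% lower. In 32 of the 40 genes every Flt-1+/- library lay above every wild type library, which was so for 11.2% of all genes compared. Among genes with means in the same range as the 40, the share called higher was 2.69% and the share without overlap 11.1%. The 40 genes were read in the same libraries and tended to move together, with wild type A lowest of all for 34. These counts are therefore not 40 independent results, and genes are not replicates of a genotype.

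The count of genes that passed differed between tests. A limma fit to the recovered counts, adjusted over all 15079 genes in the fit, called 5 of the 40 higher and 0 lower, where it called 0.802% of all genes higher and 1.35% lower. Among genes with means in the range of the 40, limma called 0.855% higher. The 5 were Kif23, Kif4, Kif20a, Ube2c and Kif2c. At an unadjusted p of 0.05, limma had 36 of the 40 higher, against 7.93% of all genes. Without Flt-1+/- library B limma called 8 of the 40, and without any other single library it called 0. Below, a gene is said to rise where the deposited test called it. Counts by role are parts of the counts above and stand against the same shares over all genes.

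**Figure D1:**
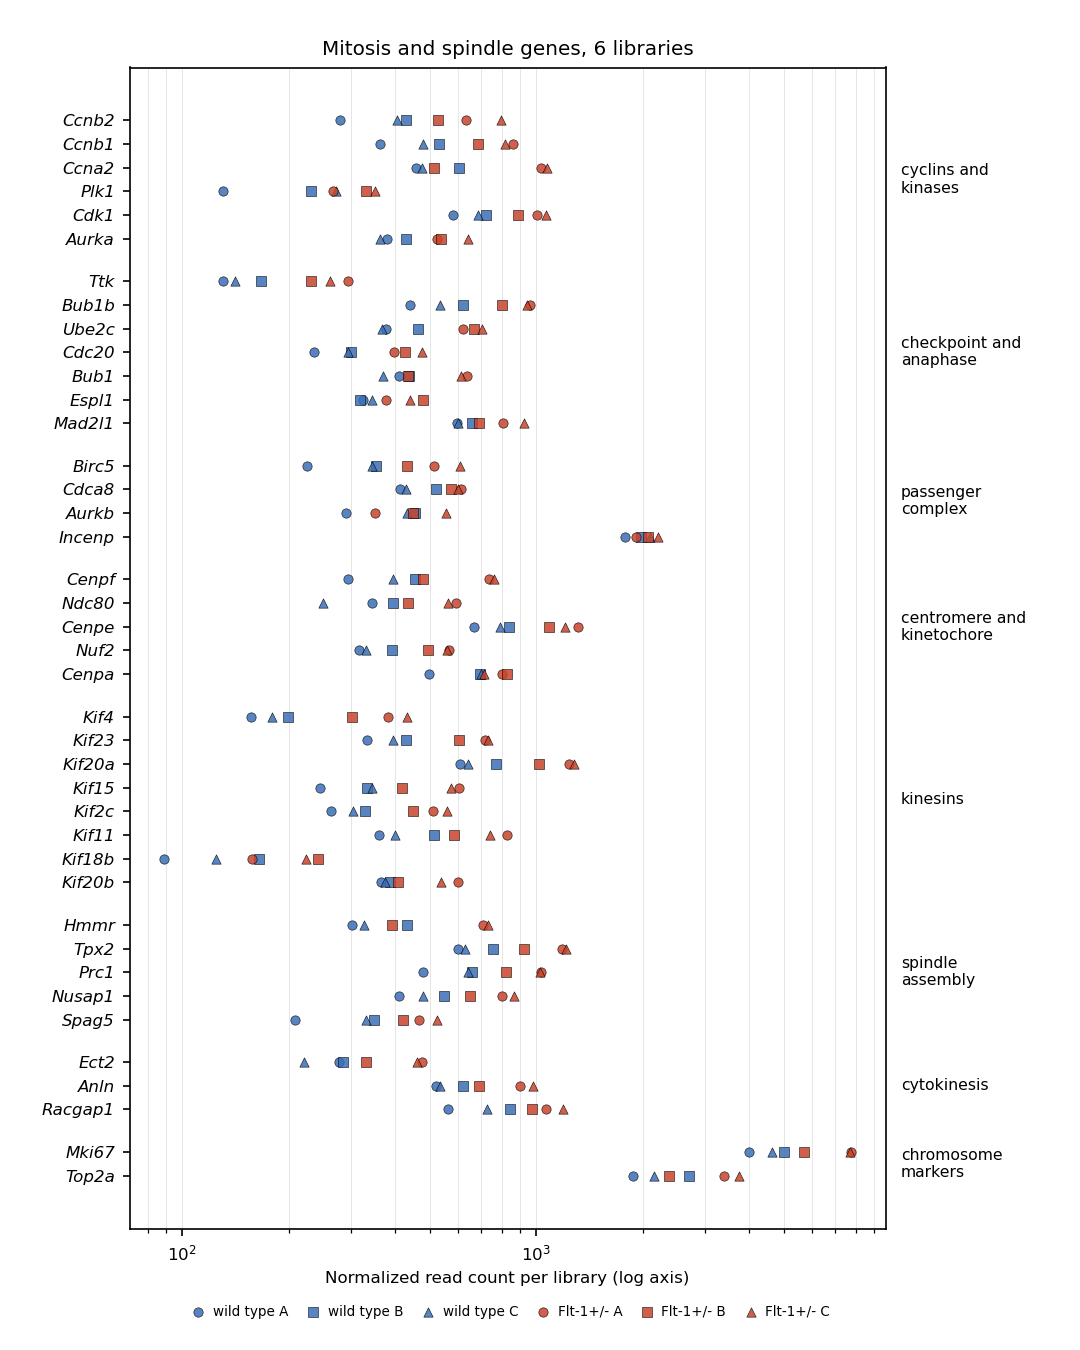
Normalized read count (log axis) of each of the 40 genes in the 3 wild type (blue) and 3 Flt-1+/- (red) libraries, grouped by role, with the marker shape giving library A, B or C. In 32 genes all red points lie to the right of all blue points, and Mki67, Top2a and Incenp stand at the highest counts.

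**Figure D2:**
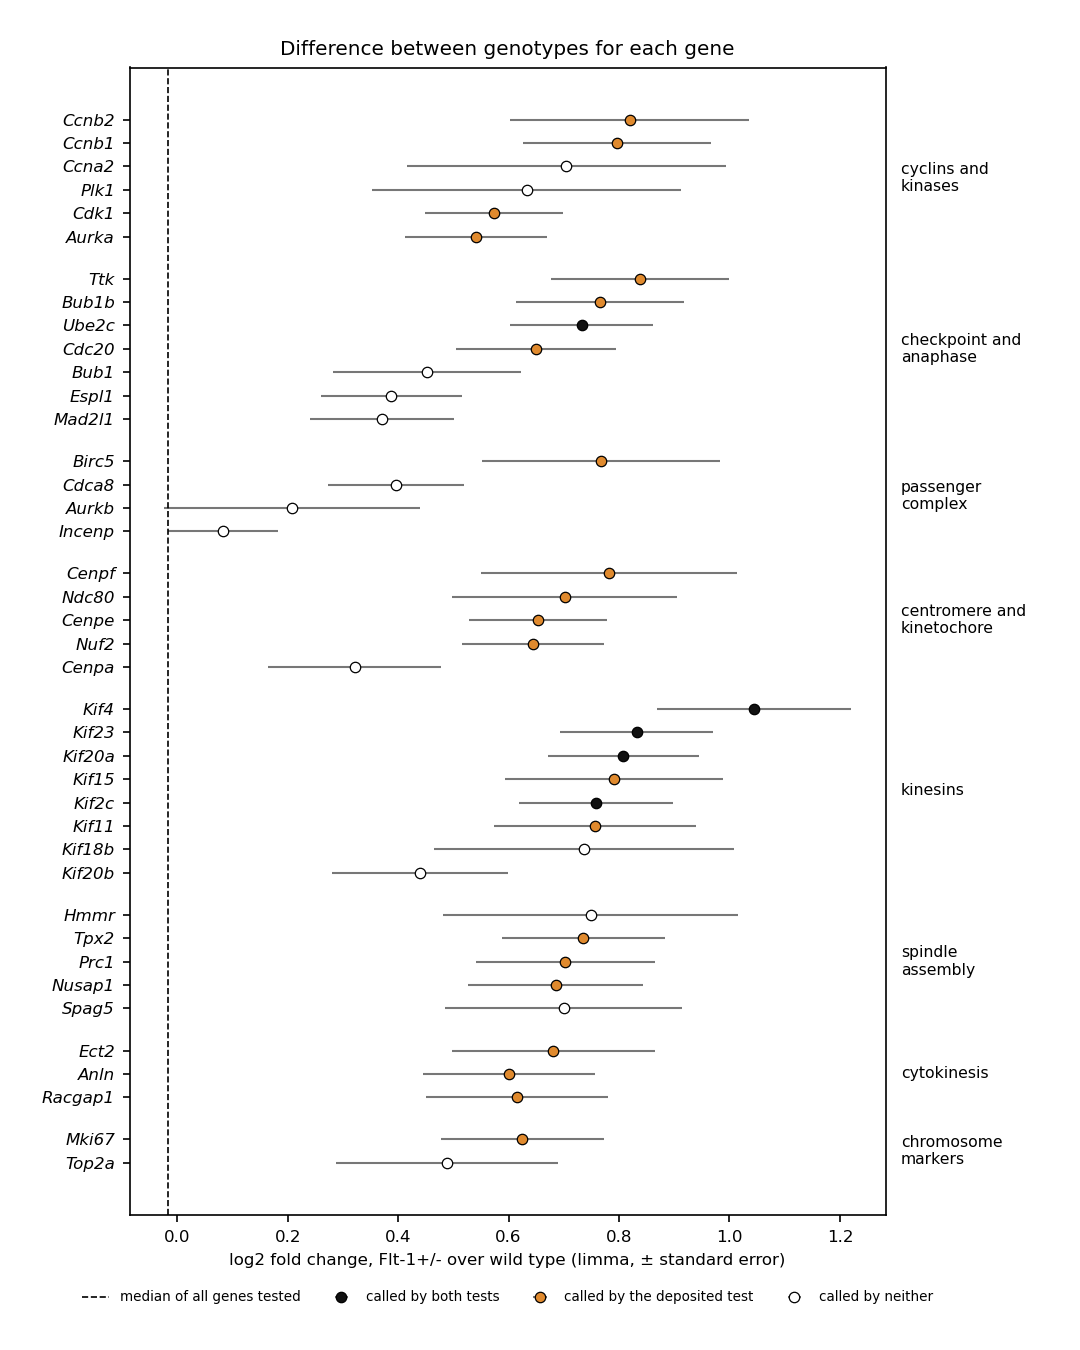
The log2 fold change of each gene (limma, Flt-1+/- over wild type, bars are standard errors), with black points called by both tests, orange points by the deposited test and white points by neither. All 40 points lie right of the median of all genes tested, at -0.02, and Kif4 lies farthest, at 1.04.

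Libraries of the same genotype differed in the level of the whole group of genes. Summed over the 40 genes, wild type libraries A, B and C held 21169, 27339 and 24539 normalized counts and Flt-1+/- libraries A, B and C held 38648, 31371 and 40384. The sums of both genotypes did not overlap, and the ratio of their means was 1.51-fold. Wild type library A was the lowest of all 6 libraries for 34 genes. Within wild type, library B was highest for 35 genes, and within Flt-1+/- library B was lowest for 31. The highest library of all was Flt-1+/- C for 23 genes, A for 14 and B for 3, and never a wild type library. The median coefficient of variation between libraries was 13.4% for the 40 genes and 7.42% for genes with means in the same range in wild type, and 14.0% and 11.9% in Flt-1+/-, a difference that was not tested.

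**Figure D3:**
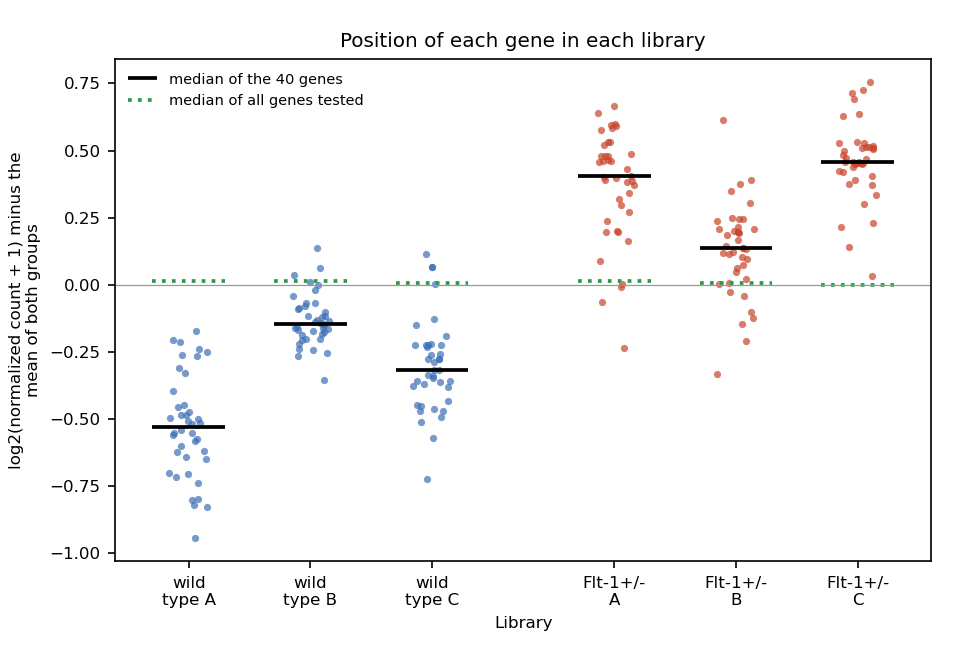
Each point is the log2(normalized count + 1) of a gene in a library minus the mean of both group means, with the median of the 40 genes as a black line and that of all genes tested as a dotted green line. The black lines lie at -0.53, -0.15 and -0.32 in wild type libraries A, B and C and at 0.40, 0.14 and 0.46 in the Flt-1+/- libraries, while the green lines stay within 0.015 of 0.

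The libraries also split by the mitochondrial gene mt-Co2, which was listed at 0 in wild type C and Flt-1+/- B and C but had between 4069.6 and 4751 normalized counts in each of the other 3 libraries. The median log2 ratio of the 40 genes was 0.74 among the libraries with mt-Co2 reads and 0.64 among those listed at 0. The direction was shared by both sets. However, Flt-1+/- A was the only library of its genotype with mt-Co2 reads, and wild type C the only wild type library listed at 0. Limma with a term for this set called 4 of the 40 genes higher. Of the 5 called without the term it lost Ube2c (adjusted p 0.0503) and Kif2c (adjusted p 0.0584), and it gained Ttk (adjusted p 0.0482).

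Markers of neutrophils and their late precursors, some of which divide in marrow, moved with genotype. Of 12 listed markers 11 were tested and 8 rose, where the deposited test called 2.51% of all tested genes higher and 3.52% lower. The median log2 ratio of the 11 markers was 3.91, where that of the 40 mitotic genes was 0.69. Ngp, a neutrophil granule protein, had the highest log2 ratio, 5.83, at means of 11.5 and 708 normalized counts. The 8 markers that rose, chosen by their calls, summed to 154 to 199 normalized counts in wild type and 3048 to 4027 in Flt-1+/-. That choice fixed the direction of the gap between genotypes in their sum, so the gap is not separate evidence. In Flt-1+/- the sum of these 8 markers was lowest in library B and highest in C, as was the sum of the 40 mitotic genes. The whole list went the other way there, highest in B at 7913 and lowest in C at 7048 normalized counts. In wild type the sum of the 8 markers was highest in library C, and that of the 40 mitotic genes in B. The sum over the whole list, 3166 to 3746 against 7048 to 7913 normalized counts, is mostly Mmp9 and Mmp8 in wild type, which the test did not call. Markers of granulocyte and monocyte progenitors, 10 listed, summed to 126 to 152 normalized counts in wild type and 104 to 123 in Flt-1+/-. Elane, a primary granule protease, was at 0 in 5 of 6 libraries and Prtn3 in 4. Summed erythroid markers stood at 69.4 to 82.5 normalized counts in wild type and 26.9 to 89.5 in Flt-1+/-, and fibroblast and stromal markers at 410.3 to 809 and 649 to 1136, with Acta2 the 1 that rose. Of the B and plasma cell markers Igkc and Jchain fell, of the T and NK cell markers Cd4 fell, and of the endothelial markers Vwf rose. Of 10 macrophage markers 3 fell, against 3.52% of all tested genes, and 3 had a higher mean in Flt-1+/-. The median log2 ratio of the 10 was -0.33. Csf1r, the receptor for colony-stimulating factor 1, was among those that fell, at means of 45697 and 31060 normalized counts. The part of these cells in the result was not tested.

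Promoters of late cell cycle genes are known to carry a cell cycle homology region, with the core letters TTTGAA, near the start of transcription, and CCAAT boxes upstream of it. The DREAM complex, which silences these genes in resting cells, and its activating counterpart with B-MYB and FOXM1 act through the former, and NF-Y binds the latter. RefSeq promoter windows (build GRCm38.p6, 250 bases before to 50 after the gene's start) were held for 35 of the 40 genes, in 37 windows. Aurkb, Ccna2, Incenp, Tpx2 and Kif20a had none. TTTGAA stood on either strand in 30 of these 37 windows (81.1%), against 17.9% of all 32851 windows of the same length. In 28 of the 37 it began within 50 bases of the start, between positions -30 and 41, against 4.94% of all windows; this distance was chosen after the positions were seen. CCAAT stood on either strand in 28 windows (75.7%), against 37.4% of all. Both motifs stood in 25 windows (67.6%), against 6.95%. The E2F letters TTTCCCGC, TTTGGCGC, TTTCGCGC and TTTGCCGC, read on both strands, stood in 2 windows (5.41%), those of Kif15 and Cdk1, against 2.26% of all. CCAAT and its reverse ATTGG can share bases with each other, and either can share an end base with TTTGAA or its reverse. A match of letters describes the window and does not show that a factor binds there.

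The windows of the 6 genes with the smallest deposited adjusted p that hold TTTGAA, among those that could be printed, are shown as examples of where the motifs stand. They were picked for both the call and the motif. TTTGAA also stood in windows of genes that were not called, such as Plk1, Top2a and Cenpa. Ccnb1 and Cenpe rose with no TTTGAA in their windows. No link between the motif and a rise was tested. Capitals mark TTTGAA or its reverse TTCAAA, and CCAAT or its reverse ATTGG. Each printed window reads 5′ to 3′ along the gene, with the gene's start 250 bases in. The windows lie at chrX:100625815-100626114 on the plus strand for Kif4, at chr9:61946750-61947049 on the minus strand for Kif23, at chr2:164769679-164769978 on the plus strand for Ube2c, at chr4:117178723-117179022 on the minus strand for Kif2c, at chr2:118597961-118598260 on the plus strand for Bub1b and at chr9:83834439-83834738 on the plus strand for Ttk.
Kif4: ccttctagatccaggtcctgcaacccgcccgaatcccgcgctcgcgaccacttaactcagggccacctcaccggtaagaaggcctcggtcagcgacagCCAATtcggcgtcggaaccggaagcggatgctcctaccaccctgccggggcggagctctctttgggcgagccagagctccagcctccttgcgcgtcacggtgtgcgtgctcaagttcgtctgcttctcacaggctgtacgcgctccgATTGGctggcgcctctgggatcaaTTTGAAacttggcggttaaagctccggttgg
Kif23: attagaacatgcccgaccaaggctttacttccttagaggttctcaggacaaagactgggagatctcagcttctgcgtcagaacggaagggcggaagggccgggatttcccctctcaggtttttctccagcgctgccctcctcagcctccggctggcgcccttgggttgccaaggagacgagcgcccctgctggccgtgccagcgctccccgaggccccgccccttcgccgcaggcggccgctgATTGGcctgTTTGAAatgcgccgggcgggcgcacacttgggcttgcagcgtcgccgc
Ube2c: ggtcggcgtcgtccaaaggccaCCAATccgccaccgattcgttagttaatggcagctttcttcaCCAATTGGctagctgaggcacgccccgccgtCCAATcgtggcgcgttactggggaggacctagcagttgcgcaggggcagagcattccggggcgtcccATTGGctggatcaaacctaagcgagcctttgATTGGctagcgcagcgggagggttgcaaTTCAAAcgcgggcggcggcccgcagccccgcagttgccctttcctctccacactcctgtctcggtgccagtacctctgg
Kif2c: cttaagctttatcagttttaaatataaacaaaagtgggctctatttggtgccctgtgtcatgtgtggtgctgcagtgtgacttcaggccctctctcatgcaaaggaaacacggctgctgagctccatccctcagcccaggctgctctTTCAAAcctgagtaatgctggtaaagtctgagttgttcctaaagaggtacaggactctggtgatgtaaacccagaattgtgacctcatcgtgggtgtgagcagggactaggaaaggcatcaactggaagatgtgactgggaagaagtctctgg
Bub1b: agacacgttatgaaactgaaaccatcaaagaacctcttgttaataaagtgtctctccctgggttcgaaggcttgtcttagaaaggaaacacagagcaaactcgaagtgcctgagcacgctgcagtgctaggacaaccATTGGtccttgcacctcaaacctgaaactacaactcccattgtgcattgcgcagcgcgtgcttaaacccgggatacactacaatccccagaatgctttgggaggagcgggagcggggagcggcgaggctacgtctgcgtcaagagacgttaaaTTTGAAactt
Ttk: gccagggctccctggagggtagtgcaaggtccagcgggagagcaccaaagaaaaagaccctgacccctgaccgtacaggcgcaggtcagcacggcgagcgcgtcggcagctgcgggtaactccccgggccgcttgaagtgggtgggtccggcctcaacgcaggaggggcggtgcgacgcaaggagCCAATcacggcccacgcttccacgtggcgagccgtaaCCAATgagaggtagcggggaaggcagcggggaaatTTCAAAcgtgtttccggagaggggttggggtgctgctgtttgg
In Kif4 TTTGAA begins at position 20 after the start, in Kif23 at 3, in Bub1b at 41 and in Ttk, on the other strand, at 8. Ube2c has it on the other strand 29 bases before the start, with 6 CCAAT boxes upstream counting both strands. Kif2c differs from the others, with its only match 103 bases before the start and no CCAAT box. Its RefSeq start, like those of Kif4 and Ube2c, lies inside the span that the authors' deposited table gives for the gene. For Kif2c, on the minus strand, the window ends at base 117179022 and the span at base 117182639.

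Of the 6 genes for cyclins and mitotic kinases, 4 rose and 0 fell. Ccnb1, the cyclin B1 that activates Cdk1 (chr13:100778650-100786570, build mm10), stood at 362, 532 and 478 normalized counts in wild type libraries A, B and C and at 861, 687 and 816 in Flt-1+/- A, B and C. Ccnb2, the related cyclin B2, stood at 278, 429 and 404 normalized counts in wild type and 635, 527 and 796 in Flt-1+/-. Every Flt-1+/- library lay above every wild type library for both cyclins B. For Ccnb1 the authors' deposited table lists a log2 change of 0.69 ± 0.17 (SE), adjusted p 0.00178. For Ccnb2 the authors' deposited table lists a log2 change of 0.68 ± 0.19 (SE), adjusted p 0.0118. Cdk1, the kinase that drives entry into mitosis, stood at 581, 724 and 686 normalized counts in wild type and 1006, 886 and 1067 in Flt-1+/-, a 1.49-fold ratio of means with an adjusted p by the authors' deposited table of 0.00582. Aurka, the Aurora A kinase of centrosomes and spindle poles, stood at 378, 428 and 363 and at 526, 537 and 643 normalized counts, with an adjusted p of 0.018 by the authors' deposited table. Neither gene overlapped between genotypes. Ccna2, cyclin A2, which acts from S phase into early mitosis, had a wider spread. It stood at 457, 605 and 475 normalized counts in wild type and 1029.7, 515 and 1073 in Flt-1+/-, where library B fell inside the wild type range, and its adjusted p by the authors' deposited table was 0.0819. Plk1, the Polo-like kinase 1, stood at 130.4, 231 and 273 and at 267, 330.0 and 349 normalized counts. Flt-1+/- A lay below wild type C for this gene, and the adjusted p by the authors' deposited table was 0.294.

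The spindle checkpoint and the control of anaphase are represented by 7 genes, of which 4 rose and 0 fell. Ube2c, the ubiquitin-conjugating enzyme of the anaphase-promoting complex (chr2:164769898-164778822), stood at 375, 464 and 366 normalized counts in wild type and 623, 669 and 704 in Flt-1+/-. The authors' deposited table lists a log2 change of 0.66 ± 0.15 (SE), adjusted p 0.000299, and limma gave 0.73 ± 0.13 (SE) on the log2 scale with an adjusted p of 0.0407. The gap between genotypes was wide next to the spread within them, at 402 ± 54.2 against 665 ± 40.8 normalized counts (SD, n = 3 each). Limma lost this call without any 1 of the 6 libraries. Cdc20, the activator of that complex, stood at 235, 299 and 295 and at 396, 425 and 476 normalized counts, with no overlap and an adjusted p of 0.00811 by the authors' deposited table. Bub1b, the BubR1 protein that inhibits Cdc20, stood at 440.1, 622 and 534 normalized counts in wild type and 959.6, 798 and 940.5 in Flt-1+/-. Ttk, the Mps1 kinase that starts checkpoint signalling, stood at 130.4, 167 and 141 and at 294, 231 and 261 normalized counts. Both were free of overlap, and the adjusted p by the authors' deposited table was 0.000892 for Bub1b and 0.00173 for Ttk. The other 3 did not pass. Bub1, a kinase of kinetochores, stood at 409.6, 436 and 369 normalized counts in wild type and 638, 434 and 612 in Flt-1+/-, where library B lay just under wild type B. Mad2l1, a checkpoint protein that binds Cdc20, stood at 595, 660.2 and 602 and at 806, 689.8 and 921 normalized counts. Espl1, the separase that cuts cohesin at anaphase, stood at 324, 317 and 344 and at 376, 478 and 441 normalized counts. Mad2l1 and Espl1 did not overlap between genotypes, yet their ratios of means were small, at 1.30-fold and 1.31-fold, with adjusted p by the authors' deposited table of 0.163 and 0.16.

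The chromosomal passenger complex joins Aurora B kinase to 3 partners and corrects faulty attachments. Of its 4 genes here 1 rose and 0 fell. Birc5, survivin, stood at 225, 352 and 344 normalized counts in wild type and 513, 430.4 and 610.2 in Flt-1+/-, a 1.69-fold ratio of means with an adjusted p by the authors' deposited table of 0.0258. Cdca8, borealin, stood at 413, 522 and 429 and at 611, 573 and 602 normalized counts, without overlap but with an adjusted p of 0.13 by the authors' deposited table. Aurkb, the kinase itself, stood at 289, 454 and 433 normalized counts in wild type and 351, 449 and 556 in Flt-1+/-. Flt-1+/- A lay below wild type B and C for Aurkb, so its genotypes were interleaved. Incenp, the scaffold, stood at 1780.0, 1977 and 2095 and at 1915, 2072 and 2209 normalized counts. Incenp had the smallest difference of the 40 genes, a limma log2 fold change of 0.08 ± 0.10 (SE), and Aurkb the next smallest, 0.21 ± 0.23 (SE); limma's adjusted p was 0.728 and 0.706. Whether the differences of these genes are smaller than those of other members was not tested.

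Centromere and kinetochore genes numbered 5, of which 4 rose and 0 fell, and all 5 were free of overlap. Cenpe, a kinesin-like motor that moves chromosomes to the spindle equator, stood at 667, 838 and 788 normalized counts in wild type and 1310.2, 1086 and 1204 in Flt-1+/-. The authors' deposited table lists a log2 change of 0.60 ± 0.14 (SE), adjusted p 0.000789. Nuf2 and Ndc80 are subunits of the complex that grips microtubules. Nuf2 stood at 316, 392 and 331 normalized counts in wild type and 568, 494 and 559.7 in Flt-1+/-, and Ndc80 at 343, 394 and 249 and 592, 434 and 565. Both were higher in Flt-1+/- A and C than in B, and the adjusted p by the authors' deposited table was 0.00255 for Nuf2 and 0.0382 for Ndc80. Cenpf, a large protein of the outer kinetochore, stood at 294, 453 and 394 and at 737, 478 and 760.3 normalized counts, so that Flt-1+/- B lay only just above wild type B, and its adjusted p by the authors' deposited table was 0.0256. Cenpa, the histone H3 variant of centromeres, stood at 497, 695 and 697 normalized counts in wild type and 798, 828 and 713 in Flt-1+/-. Its ratio of means was 1.24-fold with an adjusted p by the authors' deposited table of 0.427, and the gap between the highest wild type and the lowest Flt-1+/- library was narrow.

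Kinesins, the motors that slide and order spindle microtubules, held 4 of the 5 genes called by both tests. That share rests on the threshold, since limma's adjusted p was 0.0518 for Cenpe and 0.0533 for Ttk, which stand in other groups here. Of 8 kinesin genes 6 rose and 0 fell by the deposited test. Kif4, a chromosome-bound motor that shortens the central spindle (chrX:100625737-100727214), stood at 156, 199.6 and 179 normalized counts in wild type and 381, 301 and 431 in Flt-1+/-. This was the largest ratio among the 40 genes. The authors' deposited table lists a log2 change of 0.90 ± 0.18 (SE), adjusted p 3.93e-05, and limma gave a log2 fold change of 1.04 ± 0.18 (SE). Kif23, the motor of the centralspindlin complex (chr9:61915905-61946774), stood at 333, 429 and 393 and at 717, 606 and 730.3 normalized counts. Kif20a, which carries the passenger complex to the central spindle (chr18:34624624-34633265), stood at 608, 769 and 639.8 normalized counts in wild type and 1235, 1018 and 1279 in Flt-1+/-. Kif2c, which takes microtubules apart at kinetochores (chr4:117159639-117182639), stood at 264, 328 and 304 and at 512, 447 and 558 normalized counts. In all 4 of these genes the lowest Flt-1+/- library was B and it still lay above the highest wild type library, which was B. The authors' deposited table lists adjusted p of 5.21e-05 for Kif23, 5.40e-05 for Kif20a and 0.00049 for Kif2c. Limma's adjusted p was 0.0356 for Kif4, 0.0349 for Kif23, 0.0364 for Kif20a and 0.046 for Kif2c, and each lost its call in limma without any 1 of wild type A, B or C or Flt-1+/- A or C. Kif11, the Eg5 motor that pushes spindle poles apart, stood at 359.7, 514 and 400.4 normalized counts in wild type and 828, 584 and 739.8 in Flt-1+/-. Kif15, which can act beside Kif11, stood at 245, 332 and 343 and at 603, 417 and 576 normalized counts. Both rose in the deposited test, with adjusted p by the authors' deposited table of 0.00758 and 0.00794, and neither overlapped. Kif20b, a motor of the late spindle, stood at 364, 387 and 373 and at 602, 407 and 538 normalized counts, and Kif18b, a regulator of astral microtubule length, at 88.8, 165 and 125 and 157, 243 and 224. These 2 had adjusted p by the authors' deposited table of 0.152 and 0.156, and in Kif18b Flt-1+/- A lay below wild type B.

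Of 5 spindle assembly factors 3 rose and 0 fell. Tpx2, which activates Aurora A and nucleates microtubules near chromosomes, stood at 601, 757 and 629.7 normalized counts in wild type and 1186, 921 and 1211 in Flt-1+/-, and the authors' deposited table lists a log2 change of 0.66 ± 0.16 (SE), adjusted p 0.000866. Prc1, which bundles the antiparallel microtubules of the central spindle, stood at 478, 660.2 and 641 and at 1032, 824 and 1028 normalized counts. Nusap1, a microtubule-binding protein of the spindle, stood at 409.6, 550.2 and 479 normalized counts in wild type and 801, 649 and 865 in Flt-1+/-. All 3 were free of overlap, and the adjusted p by the authors' deposited table was 0.00502 for Prc1 and 0.00602 for Nusap1. Hmmr, a spindle pole protein and hyaluronan receptor, stood at 301, 431 and 326 and at 705, 391 and 732 normalized counts. Spag5, astrin, stood at 208, 348 and 331 normalized counts in wild type and 466, 421 and 524 in Flt-1+/-. Hmmr missed the threshold in the authors' deposited table at 0.0568, with Flt-1+/- B below wild type B, and Spag5 missed it at 0.0589 without overlap.

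All 3 cytokinesis genes rose. Racgap1, the partner of Kif23 in centralspindlin, stood at 563, 845 and 725 normalized counts in wild type and 1066, 976 and 1194 in Flt-1+/-. Ect2, the exchange factor that activates RhoA at the cleavage furrow, stood at 276, 285 and 221 and at 476, 330.0 and 460.0 normalized counts. Anln, anillin, a scaffold of the contractile ring, stood at 522, 620.1 and 536 normalized counts in wild type and 898, 688 and 980.1 in Flt-1+/-. None of the 3 overlapped between genotypes, and the adjusted p by the authors' deposited table was 0.0276, 0.0245 and 0.0171 in turn. The chromosome-bound markers Mki67 and Top2a were split by the test. Mki67, the Ki-67 protein that coats mitotic chromosomes, stood at 3991, 5028 and 4645 normalized counts in wild type and 7766, 5716 and 7701 in Flt-1+/-, and the authors' deposited table lists a log2 change of 0.57 ± 0.15 (SE), adjusted p 0.00543. Top2a, topoisomerase II alpha, stood at 1879.9, 2699 and 2158 and at 3403, 2379 and 3733 normalized counts. Flt-1+/- B lay below wild type B for Top2a, and its adjusted p by the authors' deposited table was 0.173.

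Per kilobase of merged exon (GENCODE M21), wild type levels of the 40 genes ran from 24.7 mean normalized counts per kb for Cenpf to 453 for Mki67. Incenp was next to Mki67 at 451 counts per kb, followed by Top2a at 249 and Ccnb2 at 242. Kif4, with the largest ratio, was among the scarcest at 32.3 counts per kb in wild type and 67.3 in Flt-1+/-. These levels are a description, since the annotation the authors counted on is not given in the sources used here.

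Among the genes called by both tests, some share exon bases with neighbours. Exons of 9 of the 40 genes overlap exons of a gene on the opposite strand, and how the counting used strand is not given. For Kif20a 29.3% of exon bases are shared with Cdc23, for Ube2c 22.8% with Tnnc2 and for Kif4 15.1% with Pdzd11. Cdc23 stood at means of 1151 and 1231 normalized counts in wild type and Flt-1+/-, Pdzd11 at 991 and 1114, and Tnnc2 at 13.4 and 23.3. The authors' deposited table calls none of these 3 partners, at adjusted p of 0.843, 0.711 and 0.884. Ccnb1, Ccnb2 and Kif4 have pseudogenes named after them, and reads of such copies could be split.

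Other cell cycle genes were counted by list, with the same calls. Of 71 further genes of mitosis and the spindle, 16 rose and 0 fell by the deposited test, against 2.51% and 3.52% of all tested genes. Limma called 3 higher, against 0.802% of all genes. The median log2 ratio of the 71 was 0.49. Sgo1, shugoshin, which protects centromeric cohesin, stood at 84.2, 86.7 and 69.4 normalized counts in wild type and 183, 175 and 195 in Flt-1+/-, and the authors' deposited table lists a log2 change of 1.01 ± 0.19 (SE), adjusted p 4.41e-06. Pbk, a mitotic kinase, stood at 245, 323 and 296 and at 575, 469 and 474 normalized counts. Ckap2l, a spindle protein, stood at 246, 375 and 292 normalized counts in wild type and 680.0, 476 and 648 in Flt-1+/-, and Cenpn, a centromere protein, at 160.0, 122 and 152 and 261, 249 and 277. These 4 were named for the smallest deposited adjusted p of their list, and none overlapped between genotypes. Of the 71 genes, 43 had every Flt-1+/- library above every wild type library, against 11.2% of all genes compared.

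Further lists were read against the 2.51% of all tested genes that were called higher. The 39 DNA replication genes had a median log2 ratio of 0.24. In 17 of them every Flt-1+/- library lay above every wild type library, against 11.2% of all genes compared. At an unadjusted p of 0.05, limma had 15 of the 39 higher, against 7.93% of all genes. By the deposited test 2 of the 39 rose and 0 fell. They were Mcm10, which helps to fire replication origins, at 220.2 ± 20.1 against 372 ± 17.1 normalized counts (SD, n = 3 each), and Pole, the catalytic subunit of DNA polymerase epsilon, at 379 ± 28.5 against 546 ± 44.9. Among 17 condensin and cohesin genes, with a median of 0.17, Ncapd2 of condensin was the 1 that rose, at 699.7 ± 110.2 against 1124 ± 149.8 normalized counts. In 5 of the 17 every Flt-1+/- library lay above every wild type library, and limma had 5 higher at an unadjusted p of 0.05. Of 15 genes of the anaphase-promoting complex and its regulators, with a median of 0.04, Fbxo5 (Emi1), which inhibits the complex, rose from 169.8 ± 5.53 to 281 ± 16.8 normalized counts. In 3 of the 15 every Flt-1+/- library lay above every wild type library and in 1 below. At an unadjusted p of 0.05, limma had 3 of the 15 higher. Subunits such as Anapc5, Cdc27 and Anapc1 had adjusted p by the authors' deposited table of 0.0939, 0.203 and 0.663. With 1 or 2 calls each, these lists were tested neither against that share nor against the 40 genes.

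**Figure D4:**
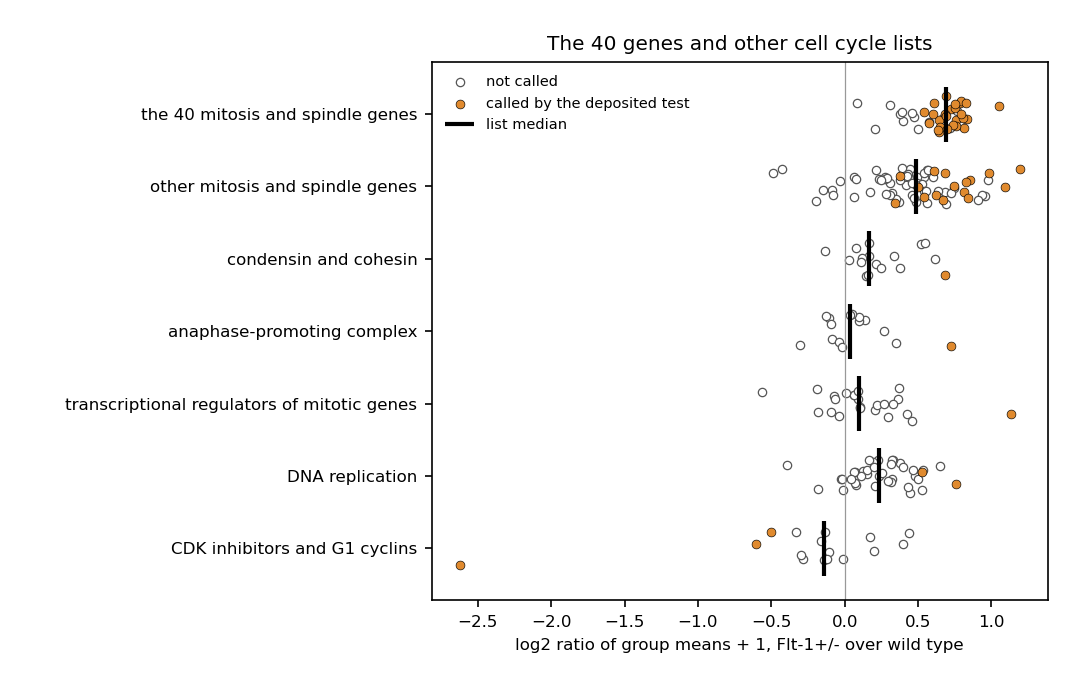
Log2 ratio of group means + 1 (Flt-1+/- over wild type) of every tested gene of the 40 and of 6 further cell cycle lists, with orange points called by the deposited test and black bars at list medians. The median is 0.69 for the 40 genes, 0.49 for other mitotic genes, 0.24 for DNA replication and -0.14 for CDK inhibitors and G1 cyclins, where Cdkn1c lies lowest at -2.62.

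Among 24 transcriptional regulators of mitotic genes, 1 rose and 0 fell, where the deposited test called 2.51% of all tested genes higher and 3.52% lower. The median log2 ratio of the 24 was 0.10. In 7 every Flt-1+/- library lay above every wild type library and in 1 below, against 11.2% and 12.3% of all genes compared. At an unadjusted p of 0.05, limma had 6 higher, against 7.93% of all genes. Foxm1, the forkhead factor that activates late cell cycle genes, stood at 111, 284 and 296 normalized counts in wild type and 498, 557 and 467 in Flt-1+/-, and the authors' deposited table lists a log2 change of 0.81 ± 0.23 (SE), adjusted p 0.0146. It did not overlap between genotypes, wild type A was by far the lowest library, and limma's adjusted p was 0.154. Nfya, a subunit of the CCAAT-binding factor NF-Y, stood at 4251, 4463 and 4228 normalized counts in wild type and 1724, 3618 and 3403 in Flt-1+/-, with an adjusted p by the authors' deposited table of 0.215 and Flt-1+/- A far below the rest. Rbl1 (p107) and Rb1, pocket proteins that restrain E2F factors, had adjusted p by the authors' deposited table of 0.202 and 0.298.

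Of 16 CDK inhibitors and G1 cell cycle genes, 3 fell and 0 rose, where the deposited test called 3.52% of all tested genes lower and 2.51% higher. Cdkn1c, the inhibitor p57, stood at 377, 187 and 363 normalized counts in wild type and 21.2, 80.5 and 46.4 in Flt-1+/-, and the authors' deposited table lists a log2 change of -1.48 ± 0.25 (SE), adjusted p 7.37e-07. Limma's adjusted p was 0.0446 for this gene. Cdkn1a, the inhibitor p21, stood at 4266, 3924 and 4663 and at 2867, 3348 and 2858 normalized counts, with an adjusted p by the authors' deposited table of 0.00426. Ccnd1, cyclin D1, which acts in G1, stood at 2237, 1726 and 1883 normalized counts in wild type and 1249, 1600.2 and 991 in Flt-1+/-, with an adjusted p of 0.0482 by the authors' deposited table. In all 3 every Flt-1+/- library lay below every wild type library, which was so for 12.3% of all genes compared. Cdkn2d, the inhibitor p19, had an adjusted p by the authors' deposited table of 0.38 and overlapping libraries. Limma called Cdkn1c alone among the 16.

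**Figure D5:**
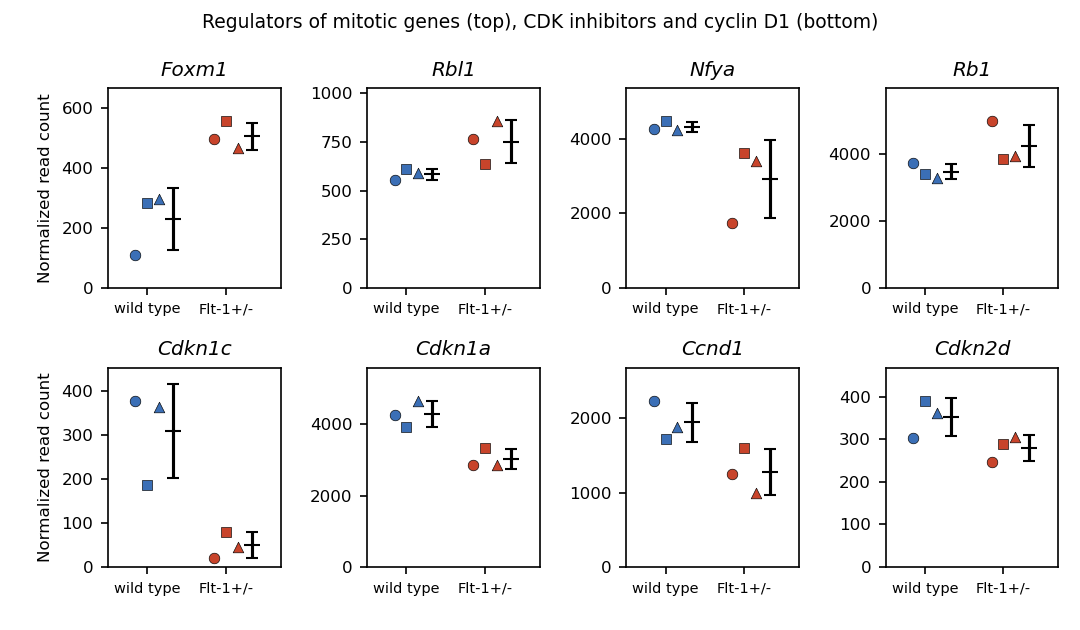
Normalized read count in each library (circle A, square B, triangle C) with mean ± SD (n = 3) for the 4 genes with the smallest deposited adjusted p among regulators of mitotic genes (top) and among CDK inhibitors and G1 genes (bottom). Foxm1 is higher in all 3 Flt-1+/- libraries, and Cdkn1c, Cdkn1a and Ccnd1 are lower in all 3.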

How the data were processed

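Total RNA of 6 samples was depleted of rRNA and prepared with a strand-marking kit, per the labels' protocols. FastQC, TopHat 1.0.0, Cufflinks and build mm10 are named in the submitters' processing notes, without roles. Which tool counted reads, and whether by strand, is not given in the sources used here. The deposited columns are named as DESeq2 names its output, per the file headers. Its signal columns are the authors' mean normalized count per genotype. The deposited log2 fold changes, with standard errors, are drawn towards 0, and the deposited score is their ratio. The deposited p-values were adjusted for 15789 genes. Calls needed an adjusted p of 0.05 or less there and 1 or more mean normalized count.

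Each mean is a sum of 3 whole counts times a step per library. Steps and counts were solved from the means to 15 digits, and a unique solution in both genotypes was found for 26289 genes (98.2%). Size factors recomputed from the counts lay within 0.144% of those solved. Solving was checked on simulated means, where 26321 of 26778 wild type and 26317 of 26778 heterozygote genes came back right and 0 wrong. limma 3.58.1 in R 4.3.3 (trend, two-sided, Benjamini-Hochberg adjustment) was run on log2(normalized count + 1) for genes with a mean of at least 10. In a simulation of these 15079 genes (dispersion 0.011), limma recovered 77% of 1.5-fold and 100% of 2-fold changes and called 9 unchanged genes. That simulation gave all genes the same dispersion and independent spread. The mitotic genes described here varied more between libraries than genes with means in the same range, a difference that was not tested. Their median coefficient of variation was 13.4% against 7.42% in wild type and 14.0% against 11.9% in Flt-1+/-. The recovered shares therefore do not give the power of limma for the mitotic genes. Symbols of further lists were matched by gene identifier.

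The design foresaw group values alone, from which library counts were then solved. The 40 genes, their roles and all lists were chosen with earlier results of these data known, so no test over a list was made. All 40 are named; up to 4 genes of each further list were named by deposited adjusted p. With 3 libraries a side, exact permutation p-values stop at 0.1, so none is given. Python 3.11.15 was used for the other steps.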

Additional observations from a re-analysis of the deposited data

How the results depend on the processing

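The median log2 ratio of the 40 genes stayed between 0.57 (leaving out wild type A) and 0.79 (leaving out wild type B) under every alternative run, and no gene of the 40 changed sign in limma when 1 library was left out or the library set was a term. The deposited test called 18 of the 40 at an adjusted p of 0.01 and 29 at 0.1, and limma, compared after the data were seen, called 5. Limma called 4 to 6 of the 40 under other pseudocounts, upper-quartile scaling, limma voom, no filter on low values or the library set term, and 8 without Flt-1+/- B but 0 without any other 1 library; the cause was not tested. Over all genes limma called 324, with 456 under the library set term, and from 41 without wild type B to 337 without Flt-1+/- B. The count of genes without overlap was 32 to 37 with 1 library left out, an alternative added after the data were seen, when the share over all genes was 14.1% to 20.8%. For further mitotic genes the 16 higher calls became 4 at an adjusted p of 0.01 and 3 in limma, and for DNA replication the 2 became 1 in each. The 1 higher call among condensin and cohesin genes became 0 in limma, that among regulators 0 in both, and the 3 lower calls among CDK inhibitors and G1 genes became 1 in limma. No paired analysis was possible because the recovered libraries carry no replicate numbers. The lowest count of any of the 40 genes in a library was 96 reads, and no link between depth and calls was tested.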
